A study of Mus musculus with 12 samples.

Results

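The Hox genes of the 4 mouse clusters were followed in explanted embryonic lungs that were free to grow or were held in by a hardened gel. Members were the rows of the count table whose symbol is Hox followed by the cluster letter a, b, c or d and a number from 1 to 13, the paralog number. This gave 39 genes of 24421 gene symbols, and the choice used no measured value. Wild type CD-1 embryos gave the lungs, which were taken at day 12.5 of gestation and grown in Matrigel at an air-liquid interface. PEG-HCC, a polymer that a two-photon laser can crosslink into a stiff barrier, was added as a 20% solution 1 day later, at Day 0. Compression lungs were collected after 2 days inside crosslinked polymer (Day 2 compression), control lungs after 2 days in the same solution left uncrosslinked (Day 2 control), and the remaining lungs at Day 0. Each of the 3 groups held 4 libraries, and all lungs shared the strain, the genotype and the culture, so no group represents a lung that developed in the embryo.

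Hox genes encode homeodomain transcription factors that give cells their position along the body axis. Within a cluster the genes lie in the order of their paralog numbers, and low numbers are switched on earlier and further forward in the embryo than high numbers, a rule known as collinearity. The proteins bind DNA together with cofactors of the Pbx and Meis families, retinoic acid turns on low-numbered genes, and Polycomb complexes keep high-numbered genes silent in anterior tissue. In the mouse lung Hox expression lies mainly in the mesenchyme, and loss of Hoxa5 disturbs airway branching and leads to respiratory failure at birth.

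Total counts per library were 25680019 to 31739019 under compression, 15452117 to 30805341 in controls and 13979871 to 33249761 at Day 0. The lung identity of the tissue was checked with its defining markers. Nkx2-1, the transcription factor of the lung epithelium, was at 213.5 to 264 CPM under compression, 234 to 247 CPM in controls and 158 to 196 CPM at Day 0 (CPM, counts scaled to the library size after TMM correction). Tbx4, a marker of lung mesenchyme, was at 181 to 248 CPM under compression, 172 to 223 CPM in controls and 199 to 224 CPM at Day 0. One control library, replicate 4, held 1654 CPM of 10 liver markers in sum, where no other library exceeded 17.5 CPM. Nothing in the labels ties the libraries of a group to separate animals, so p-values measure the spread between these samples, and the descriptions of compression replicates 2 and 3 share a number.

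At a cut of 1 CPM, expression was limited to the low and middle paralog numbers. Of the 39 genes, 19 had a mean of at least 1 CPM in any group and are called expressed here. They include Hoxa2 to Hoxa7, Hoxb2 to Hoxb8, Hoxc4, Hoxc5, Hoxd3, Hoxd4 and Hoxd8. By cluster, 7 of 11 Hoxa genes, 7 of 10 Hoxb genes, 2 of 9 Hoxc genes and 3 of 9 Hoxd genes were expressed. By paralog number, 6 of 8 genes numbered 1 to 3 were expressed, 13 of 15 numbered 4 to 8, and 0 of 16 numbered 9 to 13. No library held a single count of 8 genes, which made up 8 of the 16 numbered 9 to 13. They were Hoxa10, Hoxb13, Hoxc9, Hoxc10, Hoxc11, Hoxc12, Hoxd11 and Hoxd12. A count of 0 in all 4 libraries of a group allows a level of up to 0.026 CPM under compression, 0.0285 CPM in controls and 0.0324 CPM at Day 0, from counting error alone. The filter on low counts kept 21 Hox genes, the 19 expressed ones with Hoxd1 and Hoxd9, so 18 of the 39 were not tested.

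**Figure D1:**
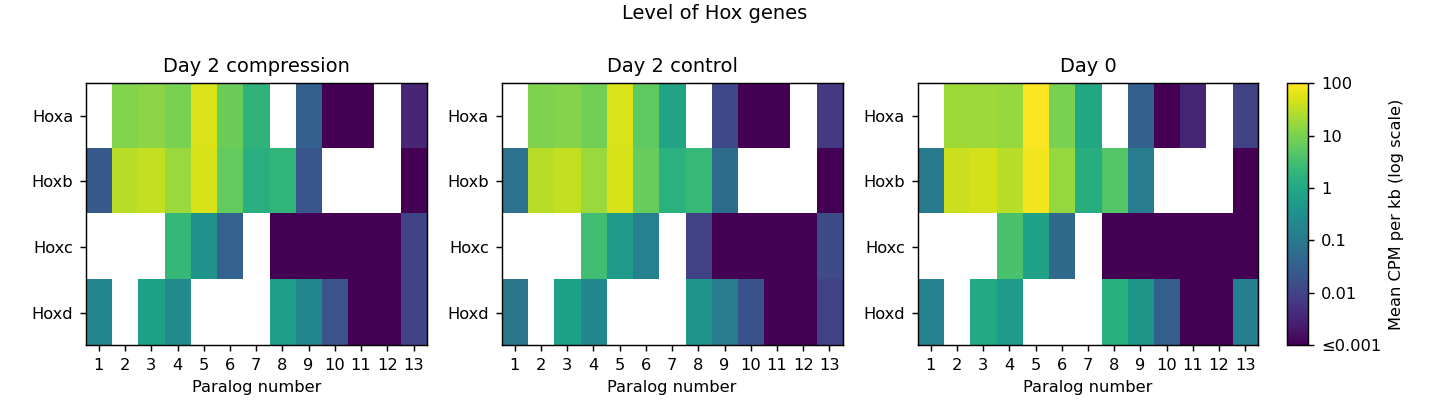
Mean level of 38 of the 39 Hox genes in CPM per kb of transcript (colour, log scale), with the 4 clusters as rows and paralog numbers as columns, for Day 2 compression (left), Day 2 control (middle) and Day 0 (right). White squares are positions for which no value is drawn, and the darkest squares hold 0.001 CPM per kb or less, including the 8 genes with no count. The bright block covers paralog numbers 2 to 6 of Hoxa and Hoxb in all 3 panels.

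Levels were compared between genes as CPM per kb of the longest protein-coding transcript. Hoxa5, at chr6:52201754-52204587 on the minus strand (mm10, GENCODE M21), had 54.3 ± 0.412 CPM per kb under compression, 52.1 ± 5.34 CPM per kb in controls and 94.9 ± 11.3 CPM per kb at Day 0 (SD, n = 4 each). Hoxb5, its counterpart in the b cluster, had 49.7 ± 6.11 CPM per kb under compression, 48.9 ± 4.79 CPM per kb in controls and 82.96 ± 3.96 CPM per kb at Day 0. Hoxb3 followed with 34.8 CPM per kb under compression, 34.5 in controls and 48.3 at Day 0, then Hoxb2 with 31, 29.03 and 39.5 and Hoxb4 with 18.03, 17.9 and 30.3 CPM per kb in the same order of groups. These 5 genes made up 75.9% of the summed Hox level per kb under compression, 76.7% in controls and 74.8% at Day 0. Neighbours lower in the order lay close together: at Day 0 Hoxa2 had 19.4 CPM per kb, Hoxa3 18.7, Hoxa4 16.7 and Hoxb6 15.8. The order depends on the length used. Over the union of all exons Hoxa5 stayed at 94.9 CPM per kb at Day 0, while Hoxb2 came to 18.5 and Hoxa3 to 8.07 CPM per kb.

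The a and b clusters carried nearly all Hox RNA. Cluster b held 57.8% of the summed level per kb under compression, 59.3% in controls and 56.4% at Day 0, and cluster a held 40.4%, 38.5% and 41.5% in the same groups. With union exon lengths the share of cluster b was 51.6% under compression, 53.2% in controls and 50.5% at Day 0. Cluster c held 1.03% under compression, 1.47% in controls and 1.13% at Day 0, and cluster d 0.808%, 0.669% and 0.997%. Paralog group 5 (Hoxa5, Hoxb5 and Hoxc5) alone accounted for 42.2% ± 0.82 under compression, 42.7% ± 1.11 in controls and 45.1% ± 2.51 at Day 0 (SD, n = 4 each).

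Promoter windows of 300 bases, 250 before and 50 after the RefSeq transcript start on GRCm38.p6, were found for 22 of the 39 genes (24 windows). Those of Hoxa5 and Hoxb4 are shown as genes of high level that were lower at Day 2, and that of Hoxa7 as a gene not called lower. Capitals mark AGGTCA, a core motif of sites that retinoic acid receptors bind, on either strand (TGACCT on the other).
Hoxa5 promoter, chr6:52204538-52204837, minus strand: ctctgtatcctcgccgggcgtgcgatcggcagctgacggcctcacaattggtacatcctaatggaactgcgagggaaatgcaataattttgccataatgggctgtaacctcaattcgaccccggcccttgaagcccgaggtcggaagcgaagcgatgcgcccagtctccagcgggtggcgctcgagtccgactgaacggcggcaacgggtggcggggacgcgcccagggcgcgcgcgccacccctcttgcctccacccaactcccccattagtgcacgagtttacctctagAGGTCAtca
Hoxb4 promoter, chr11:96318017-96318316, plus strand: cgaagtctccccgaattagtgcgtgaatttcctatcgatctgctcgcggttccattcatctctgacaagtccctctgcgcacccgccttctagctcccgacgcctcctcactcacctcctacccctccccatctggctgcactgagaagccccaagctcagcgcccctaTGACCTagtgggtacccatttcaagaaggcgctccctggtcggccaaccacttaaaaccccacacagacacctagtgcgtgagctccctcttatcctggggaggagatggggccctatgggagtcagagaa
Hoxa7 promoter, chr6:52218524-52218823, minus strand: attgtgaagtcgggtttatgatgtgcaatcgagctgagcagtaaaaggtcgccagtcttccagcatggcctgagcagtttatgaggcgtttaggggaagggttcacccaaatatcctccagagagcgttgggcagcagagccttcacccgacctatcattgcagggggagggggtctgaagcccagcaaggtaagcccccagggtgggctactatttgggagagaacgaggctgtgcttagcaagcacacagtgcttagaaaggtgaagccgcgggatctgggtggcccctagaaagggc
The core motif was present in 7 of 24 Hox windows (29.2%), those of Hoxa5, Hoxb4, Hoxc4, Hoxd3, Hoxd4, Hoxd8 and Hoxd10, and in 16.3% of 32851 windows of all genes. It was absent from the windows of Hoxa2, Hoxa3, Hoxa6, Hoxb8 and Hoxd9, which were also lower in both Day 2 groups. Whether the motif goes with the fall was not tested. The letters TGATNNAT, a composite site of Pbx and Hox proteins, were in 16.7% of Hox windows and 8.85% of all windows. TGACAG, the Meis site, was in 8.33% of Hox windows and 19.2% of all windows. All 3 motifs were searched on both strands, overlapping matches of different motifs were allowed, and a match is a description of letters, not of binding. Hox windows had a median observed over expected CpG of 0.626, against 0.384 in all windows. For the 3 windows shown the ratio was 1.02 for Hoxa5, 0.593 for Hoxb4 and 0.405 for Hoxa7.

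Hox RNA was lower after 2 days of culture, with or without compression. Summed over the 39 genes it was 495 to 575 CPM under compression, 467.5 to 536 CPM in controls and 791 to 844 CPM at Day 0, so the ranges of both Day 2 groups lay below that of Day 0 and overlapped each other. Per kb, the compression mean was 62.6% and the control mean 60.1% of the Day 0 mean. In controls 16 of the 21 tested Hox genes fell and 0 rose against Day 0 at an adjusted p under 0.05. Over all 15246 genes tested, 17.6% were lower and 22.6% were higher in that comparison. Under compression 18 of 21 fell and 0 rose against Day 0, where 22.5% of all genes were lower and 26.6% were higher. In 5 alternative fits 1 Hox gene, Hoxa7, counted as risen under compression, as given with its values. The median log2 fold change of the tested Hox genes was -0.75 under compression and -0.80 in controls, against a median of 0.02 over all genes in both comparisons. Both comparisons share the Day 0 libraries. In whole explants fewer cells of a type and less RNA per cell cannot be told apart.

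**Figure D2:**
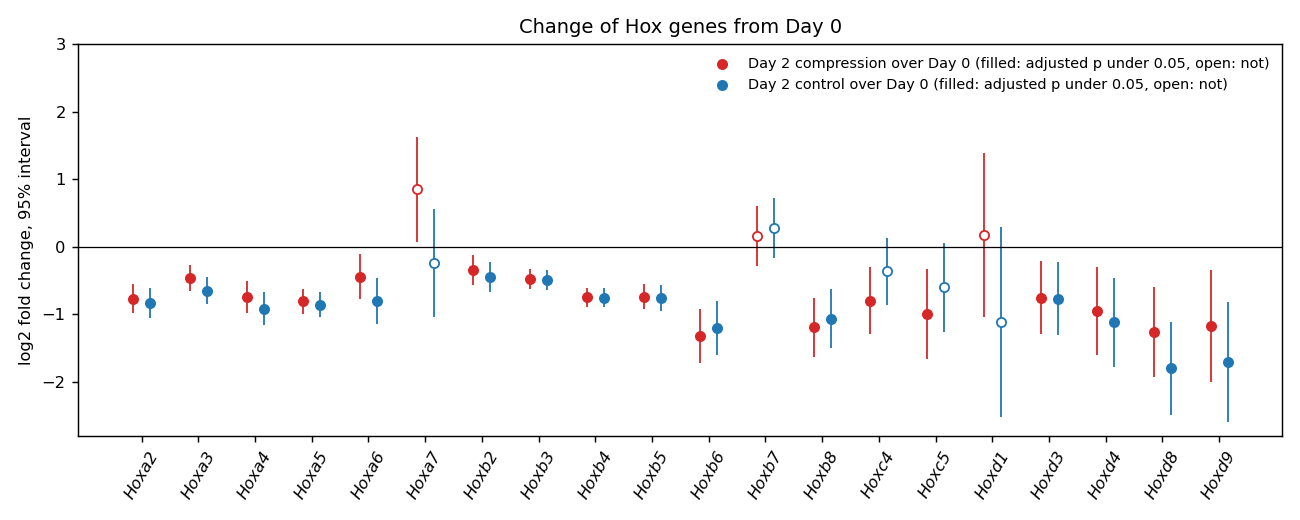
Log2 fold change of 20 of the 21 tested Hox genes for Day 2 compression over Day 0 (red, left of each pair) and Day 2 control over Day 0 (blue, right), with 95% intervals. Filled points had an adjusted p under 0.05, which 17 of the genes drawn reached under compression and 15 in controls, all below 0, and Hoxa7, Hoxb7 and Hoxd1 are open in both.

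Paralog group 1 to 3 genes, best known for patterning the hindbrain and pharyngeal arches, fell in 6 of 7 tested cases in both comparisons. Hoxa2, needed for the second pharyngeal arch, was at 18.2, 19.4, 21.6 and 21.6 CPM under compression, 18.02, 21.8, 20.2 and 17.2 CPM in controls and 29.9, 32.7, 39.5 and 35.9 CPM at Day 0, with no overlap between Day 2 and Day 0. Hoxb2, which acts in the hindbrain, was at 43.4, 50.6, 46.05 and 61.8 CPM under compression, 40.7, 47.4, 53.4 and 47.5 CPM in controls and 63.4, 65.4, 64.7 and 64.1 CPM at Day 0. Its fall was the smallest among the called genes, by 0.35 (SE 0.10, adjusted p = 0.0122) under compression and by 0.45 (SE 0.10, adjusted p = 0.00373) in controls on the log2 scale. Hoxa2 fell by 0.77 (SE 0.10, adjusted p = 3.79e-05) under compression and by 0.84 (SE 0.10, adjusted p = 3.03e-05) in controls.

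Paralog group 3 genes take part in forming the thymus, the parathyroid and the neck vertebrae. Hoxa3 was at 32.4, 34.9, 32.9 and 40.6 CPM under compression, 31.1, 29.9, 34.4 and 28.2 CPM in controls and 43.1, 46.3, 53.3 and 51.5 CPM at Day 0. Hoxb3 was at 112, 104, 101 and 127 CPM under compression, 105, 113, 110.3 and 112 CPM in controls and 150.2, 146, 157 and 163 CPM at Day 0. Both had every Day 2 value below every Day 0 value. Hoxa3 fell by 0.46 (SE 0.09, adjusted p = 0.00101) under compression and by 0.65 (SE 0.09, adjusted p = 0.000106) in controls, and Hoxb3 by 0.48 (SE 0.07, adjusted p = 9.41e-05) and 0.49 (SE 0.07, adjusted p = 0.000106) on the log2 scale. Hoxd3, expressed at a much lower level, was at 2.89, 1.78, 1.55 and 1.91 CPM under compression, 2.29, 2.37, 1.22 and 2.17 CPM in controls and 3.34, 3.56, 4.13 and 2.73 CPM at Day 0. Compression replicate 1 reached into the Day 0 range for Hoxd3 and the controls did not. Its log2 fold change was -0.75 (SE 0.25, adjusted p = 0.0223) under compression and -0.77 (SE 0.25, adjusted p = 0.0252) in controls. Hoxd3 missed the threshold in controls without Day 0 replicate 2 (adjusted p = 0.0507), without Day 0 replicate 3 (adjusted p = 0.0679) or without control replicate 3 (adjusted p = 0.0626). Under compression it did so without Day 0 replicate 3 (adjusted p = 0.0609), compression replicate 2 (adjusted p = 0.0571) or compression replicate 3 (adjusted p = 0.0635), and with compression replicates 2 and 3 summed (adjusted p = 0.0554). Of the 50-base words of its GENCODE transcripts, 65.2% also occur in transcripts of other genes, as do 42.2% for Hoxd4. How such reads were counted is not stated, so the counts of both are uncertain by an unknown amount.

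Paralog group 4 fell in 4 of 4 tested genes under compression and in 3 of 4 in controls. Hoxb4, known for its part in blood stem cells, was at 45.98, 44.8, 46.9 and 47.5 CPM under compression, 43.2, 47.4, 49.5 and 43.5 CPM in controls and 82.2, 80, 77.9 and 70.5 CPM at Day 0. The Day 2 libraries spanned a narrow range, with no overlap with Day 0. Hoxb4 fell by 0.75 (SE 0.07, adjusted p = 1.71e-06) under compression and by 0.76 (SE 0.07, adjusted p = 2.26e-06) in controls on the log2 scale, the smallest adjusted p of any Hox gene in both comparisons. Hoxa4 was at 15.7, 17.1, 16.4 and 14.2 CPM under compression, 13.5, 16.6, 13.7 and 12.3 CPM in controls and 22.4, 28.97, 29.8 and 25.2 CPM at Day 0. It fell by 0.74 (SE 0.11, adjusted p = 0.000111) under compression and by 0.92 (SE 0.11, adjusted p = 3.17e-05) in controls. Hoxd4 was at 1.03, 0.559, 0.574 and 0.421 CPM under compression, 0.644, 0.686, 0.476 and 0.447 CPM in controls and 0.941, 0.996, 1.60 and 1.41 CPM at Day 0. Compression replicate 1 lay inside the Day 0 range of Hoxd4, and its log2 fold change was -0.96 (SE 0.30, adjusted p = 0.0178) under compression and -1.12 (SE 0.31, adjusted p = 0.0105) in controls. Without Day 0 replicate 3 the compression value missed the threshold (adjusted p = 0.0534).

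Paralog group 5, the group with the clearest role in lung development, fell in both of its abundant members. Hoxa5 was at 102, 103, 101 and 102 CPM under compression, 98.7, 107, 102 and 83.8 CPM in controls and 200, 192, 166 and 155 CPM at Day 0. Every Day 2 value of Hoxa5 was below every Day 0 value, and the compression values lay within 2 CPM of each other. Hoxa5 fell by 0.80 (SE 0.09, adjusted p = 7.62e-06) under compression and by 0.86 (SE 0.09, adjusted p = 6.55e-06) in controls on the log2 scale. Hoxb5, which shares functions with Hoxa5 in the mouse lung, was at 83.5, 88.9, 93.7 and 110.4 CPM under compression, 81.9, 96.8, 103 and 89.5 CPM in controls and 156, 168, 154 and 151 CPM at Day 0. Its groups did not overlap with Day 0 either. Hoxb5 fell by 0.74 (SE 0.09, adjusted p = 1.72e-05) under compression and by 0.76 (SE 0.09, adjusted p = 2.07e-05) in controls.

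The Hoxc genes were expressed at low levels in paralog numbers 4 and 5 alone. Hoxc4 was at 5.89, 3.71, 4.16 and 4.34 CPM under compression, 4.28, 8.23, 6.32 and 5.49 CPM in controls and 9.20, 8.68, 8.67 and 5.03 CPM at Day 0. Hoxc5 was at 1.10, 1.12, 0.845 and 1.13 CPM under compression, 0.708, 1.82, 1.56 and 1.47 CPM in controls and 1.97, 1.85, 3.21 and 1.41 CPM at Day 0. Hoxc4 was high in 3 of the 4 Day 0 libraries, and control replicates overlapped the Day 0 range for both genes. Hoxc4 fell by 0.80 (SE 0.23, adjusted p = 0.0114) under compression, and its log2 fold change in controls was -0.37 (SE 0.23, adjusted p = 0.222). Hoxc5 fell by 0.999 (SE 0.31, adjusted p = 0.0165) under compression, a call that was lost without Day 0 replicate 3 (adjusted p = 0.0628). In controls the log2 fold change of Hoxc5 was -0.60 (SE 0.31, adjusted p = 0.136). The difference between compression and control was not past the threshold for either gene, as given with that comparison.

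**Figure D3:**
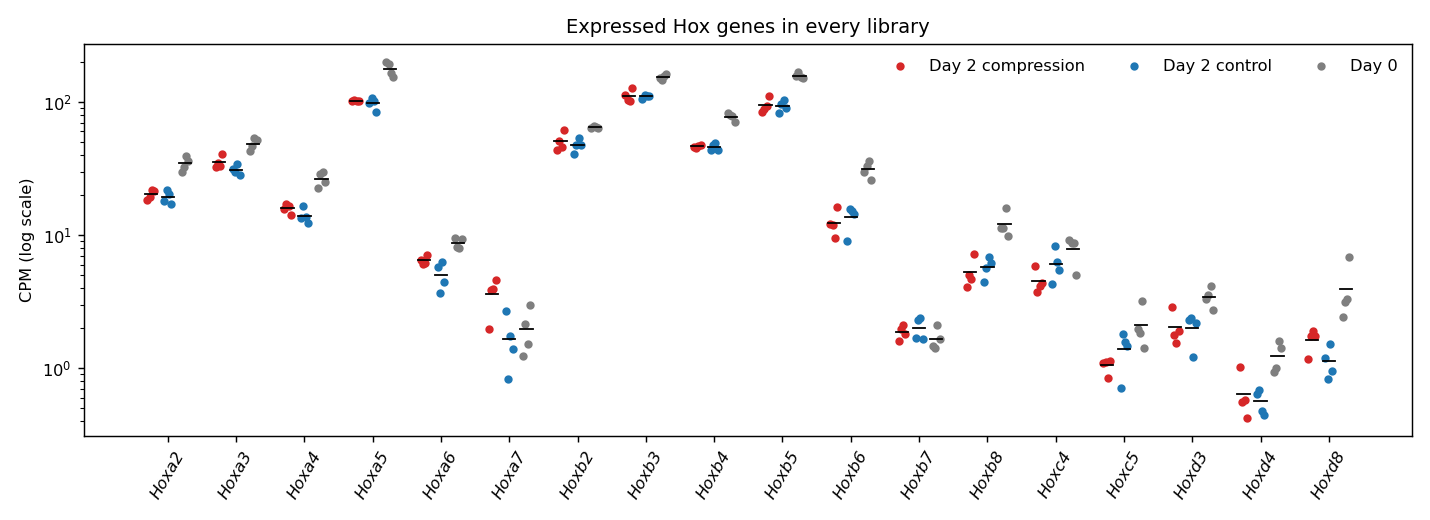
CPM (log scale) of 18 of the 19 expressed Hox genes in every library, with Day 2 compression in red (left), Day 2 control in blue (middle) and Day 0 in grey (right), and a black line at each group mean. The grey points lie above the red and blue points for most genes, while Hoxa7 and Hoxb7 overlap across all 3 groups.

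Tested genes of paralog groups 6 and 8 fell and those of group 7 did not pass the test. Hoxb6, expressed in lateral mesoderm of the mouse embryo, was at 12.02, 11.9, 9.46 and 16.2 CPM under compression, 8.98, 15.6, 15.2 and 14.5 CPM in controls and 29.5, 33.2, 35.99 and 25.8 CPM at Day 0. Control replicate 1 stood below the other controls, and no Day 2 library reached the Day 0 range. Hoxb6 fell by 1.32 (SE 0.19, adjusted p = 7.46e-05) under compression and by 1.20 (SE 0.19, adjusted p = 0.000223) in controls. Hoxa6 was at 6.50, 6.05, 6.18 and 7.06 CPM under compression, 5.76, 3.67, 6.25 and 4.41 CPM in controls and 9.50, 8.11, 8.02 and 9.38 CPM at Day 0. Compression libraries lay between the Day 0 range and most controls. Hoxa6 fell by 0.44 (SE 0.16, adjusted p = 0.0297) under compression and by 0.80 (SE 0.16, adjusted p = 0.00126) in controls. The compression call of Hoxa6 was lost without Day 0 replicate 1 (adjusted p = 0.0595), Day 0 replicate 4 (adjusted p = 0.0604), compression replicate 2 (adjusted p = 0.0674) or compression replicate 3 (adjusted p = 0.063), or with replicates 2 and 3 summed (adjusted p = 0.0623).

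Hoxb8 was at 4.07, 5.04, 4.70 and 7.25 CPM under compression, 4.44, 5.70, 6.87 and 6.13 CPM in controls and 11.2, 11.2, 16.1 and 9.82 CPM at Day 0. It fell by 1.20 (SE 0.20, adjusted p = 0.00029) under compression and by 1.07 (SE 0.20, adjusted p = 0.000934) in controls without overlap with Day 0. Hoxd8 was at 1.18, 1.75, 1.89 and 1.75 CPM under compression, 1.19, 0.823, 1.53 and 0.958 CPM in controls and 2.44, 3.13, 3.30 and 6.83 CPM at Day 0. Day 0 replicate 4 stood above the other Day 0 libraries, and neither Day 2 group overlapped with Day 0. Hoxd8 fell by 1.27 (SE 0.31, adjusted p = 0.00405) under compression and by 1.80 (SE 0.32, adjusted p = 0.000596) in controls, where it had the largest fall of the tested Hox genes. Hoxb7 lay at 1.60, 1.96, 2.10 and 1.81 CPM under compression, 1.67, 2.30, 2.38 and 1.66 CPM in controls and 1.46, 1.42, 2.11 and 1.65 CPM at Day 0, so all 3 groups overlapped. Its log2 fold change was 0.17 (SE 0.21, adjusted p = 0.529) under compression and 0.27 (SE 0.21, adjusted p = 0.317) in controls, with 95% intervals of -0.28 to 0.61 and -0.17 to 0.72.

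Between compression and control no Hox gene passed the adjusted threshold in edgeR's quasi-likelihood test or in DESeq2. Of all 15246 genes tested, 0% passed in edgeR, and the share in DESeq2 is not given here. At an unadjusted p under 0.05 stood 2 of 21 Hox genes, Hoxa6 and Hoxa7, against 12.1% of all genes. The compression and control libraries did not separate without overlap for any of the 21, against 5.77% of all genes. The median log2 fold change over the 21 was 0.06, and over all genes 0.00. Intervals were narrow for the abundant genes: Hoxa5 had a log2 fold change of 0.06 (SE 0.09, adjusted p = 0.798) with a 95% interval of -0.13 to 0.24, and Hoxb5 of 0.02 (SE 0.09, adjusted p = 0.933) with -0.17 to 0.21. These 2 genes were chosen after their values were seen. Leaving out 1 library turned the sign of both, with values of -0.0020 for Hoxa5 without control replicate 4, and -0.03 and -0.06 for Hoxb5 without control replicate 1 and without compression replicate 4.

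The 5 Hox genes with the smallest p between compression and control were Hoxa7, Hoxa6, Hoxd1, Hoxa3 and Hoxc4. Hoxa7 had a log2 fold change of 1.09 (SE 0.36, adjusted p = 0.361) and a 95% interval of 0.31 to 1.87. Hoxa6, its neighbour, had 0.35 (SE 0.16, adjusted p = 0.402), and Hoxa3 had 0.19 (SE 0.09, adjusted p = 0.434). Hoxd1, below 1 CPM in every library, had 1.28 (SE 0.63, adjusted p = 0.433). Its counts were 10, 12, 8 and 13 under compression, 0, 2, 6 and 7 in controls and 7, 3, 5 and 17 at Day 0. Against Day 0 the log2 fold change of Hoxd1 was 0.17 (SE 0.56, adjusted p = 0.825) under compression and -1.11 (SE 0.66, adjusted p = 0.195) in controls. Without control replicate 4, the library with liver markers, the control value was -1.85 and passed the threshold (adjusted p = 0.0404). Hoxc4 had the opposite sign between compression and control, with -0.43 (SE 0.23, adjusted p = 0.459). For Hoxa7 the adjusted p over the alternatives ran from 0.109 to 0.688, and it did not pass the threshold in any of them.

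**Figure D4:**
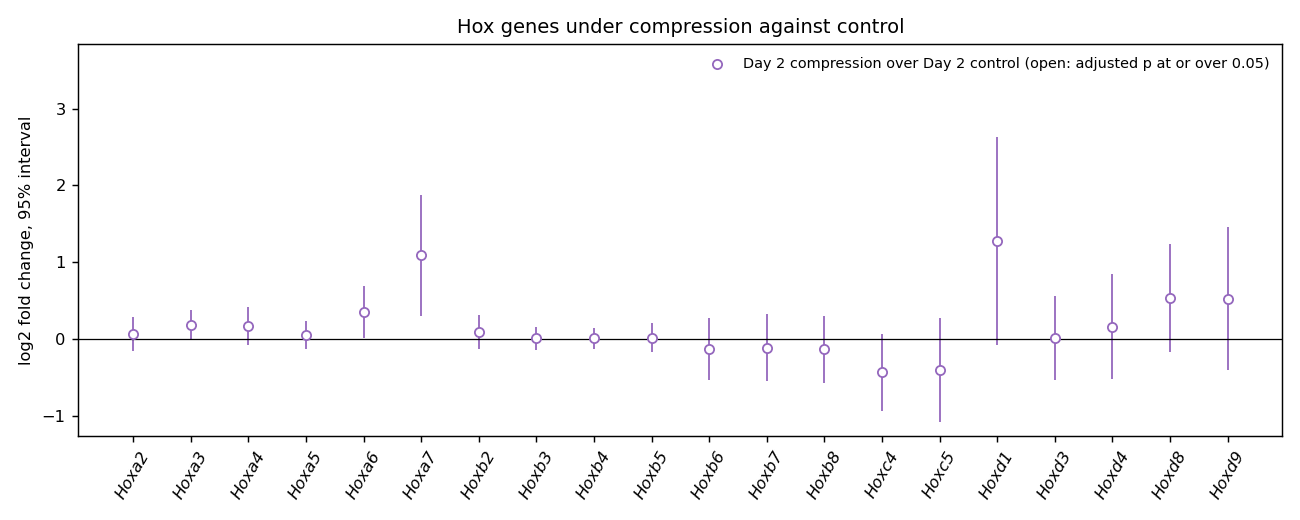
Log2 fold change of 20 of the 21 tested Hox genes for Day 2 compression over Day 2 control, with 95% intervals. All points are open because no adjusted p was under 0.05, the abundant genes Hoxa5, Hoxb3, Hoxb4 and Hoxb5 sit near 0 with short intervals, and the intervals of Hoxa6 and Hoxa7 lie above 0 before adjustment.

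Hoxa7, the neighbour of Hoxa6 in the a cluster, was not called lower in either Day 2 group, while Hoxa2 to Hoxa6 were called lower in both. It was at 1.98, 3.85, 3.92 and 4.57 CPM under compression, 2.70, 0.823, 1.73 and 1.41 CPM in controls and 1.24, 2.13, 1.51 and 2.995 CPM at Day 0. Compression replicates 2, 3 and 4 lay above every other library, and replicate 1 lay within the range of both other groups. The log2 fold change against Day 0 was 0.85 (SE 0.36, adjusted p = 0.0666) under compression and -0.24 (SE 0.38, adjusted p = 0.644) in controls. The compression value passed the threshold when the fit held only the 8 libraries compared (adjusted p = 0.0495), without Day 0 replicate 4 (adjusted p = 0.0295), without control replicate 1 (adjusted p = 0.0479), without control replicate 2 (adjusted p = 0.0469) or without compression replicate 1 (adjusted p = 0.0279). In controls the sign of the Hoxa7 value turned to 0.05 without Day 0 replicate 4.

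Mira, a noncoding RNA that has been linked to the activation of Hoxa6 and Hoxa7 in mouse embryonic stem cells, lies beside Hoxa7. RefSeq places Mira at chr6:52214491-52215288 and Hoxa7 at chr6:52215623-52218573 (GRCm38.p6), while the GENCODE model of Hoxa7, chr6:52214491-52221854, spans both. Mira was at 2.05, 4.55, 4.39 and 4.18 CPM under compression, 3.09, 0.961, 2.21 and 1.85 CPM in controls and 1.67, 2.63, 1.88 and 2.22 CPM at Day 0. The same 3 compression libraries were the highest, and control replicate 2 was the lowest for both Mira and Hoxa7. Mira rose by 0.86 (SE 0.32, adjusted p = 0.0395) under compression against Day 0 on the log2 scale. Against control its log2 fold change was 0.90 (SE 0.32, adjusted p = 0.374), and in controls against Day 0 it was -0.03 (SE 0.33, adjusted p = 0.947). The rise against Day 0 was lost without Day 0 replicate 1, 3 or 4 (adjusted p = 0.112, 0.0981 and 0.0698), control replicate 3 (0.0519) or compression replicate 2, 3 or 4 (0.111, 0.103 and 0.0887). It was also lost with compression replicates 2 and 3 summed (adjusted p = 0.102). The sources used here do not state how reads from the stretch shared by the models were assigned or whether strand was used. Mira and Hoxa7 may therefore share signal and were not taken as independent measurements.

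**Figure D5:**
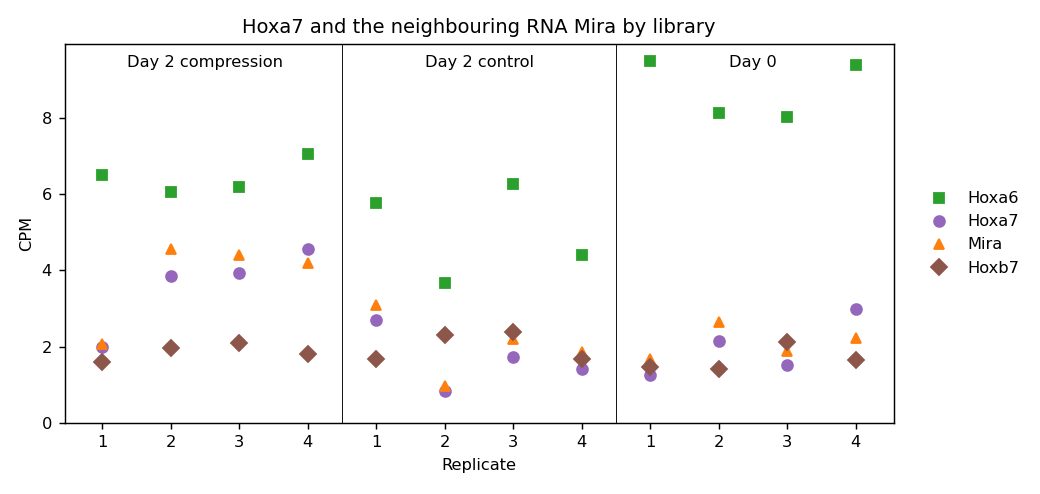
CPM of Hoxa6 (squares), Hoxa7 (circles), Mira (triangles) and Hoxb7 (diamonds) in each of the 12 libraries, with Day 2 compression on the left, Day 2 control in the middle and Day 0 on the right. Hoxa7 and Mira lie close to each other in every library and reach about 4 CPM or more in compression replicates 2 to 4.

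Posterior genes, those numbered 9 to 13, averaged below 1 CPM in every group, and 8 of the 16 had no count. The highest was Hoxd9, with a mean of 0.941 CPM at Day 0, where the counting floor was 0.0324 CPM. Hoxd9 was the only posterior gene that passed the filter. It was at 0.304, 0.420, 0.507 and 0.453 CPM under compression and 0.161, 0.240, 0.544 and 0.192 CPM in controls. At Day 0 it was at 0.513, 0.712, 1.19 and 1.35 CPM. Hoxd9 fell by 1.18 (SE 0.39, adjusted p = 0.0222) under compression and by 1.71 (SE 0.41, adjusted p = 0.00484) in controls, where control replicate 3 reached into the Day 0 range. The compression call was lost without Day 0 replicate 3 (adjusted p = 0.058) or Day 0 replicate 4 (adjusted p = 0.0819). All 16 posterior genes together had 79 counts under compression, 61 in controls and 179 at Day 0. Control replicate 3 held 35 of the 61 control counts, and Day 0 replicates 3 and 4 held 51 and 82 of the Day 0 counts.

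Hoxd13, which with Hoxa13 shapes the digits and the urogenital tract, had 1, 1, 1 and 0 counts under compression, 0, 0, 1 and 1 in controls and 12, 5, 6 and 10 at Day 0. Every Day 0 library held more than any Day 2 library. Adjusted for library size, the summed counts under compression were 0.073 times those at Day 0 (95% counting interval 0.0143 to 0.233), and those in controls 0.0533 times (0.0062 to 0.208). Hoxd13 was below the filter, and in a fit with no filter its adjusted p was 0.000597 under compression and 0.000659 in controls against Day 0. Hoxb9 had 6 counts under compression, 15 in controls and 30 at Day 0, and Hoxb1 had 6, 15 and 21. Both passed the threshold against Day 0 under compression in the fit with no filter, with adjusted p = 0.0321 for Hoxb9 and 0.0206 for Hoxb1, and neither did in controls (adjusted p = 0.306 and 0.443). These 3 genes were chosen after their values were seen. Hoxc6 had 7 counts under compression, 27 in controls and 7 at Day 0, and 19 of the control counts came from replicate 3. The other detected genes below the filter (Hoxa9, Hoxa11, Hoxa13, Hoxc8, Hoxc13 and Hoxd10) had at most 13 counts in a group.

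The cofactors that bind DNA with Hox proteins were also mostly lower at Day 2. Of 9 genes of the Pbx, Meis and Pknox families, 7 fell and 1 rose under compression against Day 0, and 7 fell and 2 rose in controls. The shares over all genes were 22.5% lower and 26.6% higher under compression, and 17.6% lower and 22.6% higher in controls. Meis1 averaged 127 ± 13.4 CPM under compression, 137 ± 5.98 CPM in controls and 221 ± 12.01 CPM at Day 0 (SD, n = 4 each), and fell by 0.80 (SE 0.07, adjusted p = 1.84e-06) and 0.69 (SE 0.07, adjusted p = 8.56e-06) on the log2 scale. Meis2 fell by 0.74 (SE 0.06, adjusted p = 6.04e-07) under compression and by 0.61 (SE 0.06, adjusted p = 3.56e-06) in controls, and Meis3 by 0.57 (SE 0.10, adjusted p = 0.00029) and 0.66 (SE 0.10, adjusted p = 0.000147). Pbx4 rose by 1.69 (SE 0.27, adjusted p = 0.000201) under compression and by 0.89 (SE 0.28, adjusted p = 0.0198) in controls, and averaged 4.61 ± 0.14 CPM under compression, 2.66 ± 0.75 CPM in controls and 1.43 ± 0.54 CPM at Day 0. The Pbx4 call in controls was lost when only the 8 libraries compared were fitted (adjusted p = 0.0524), without Day 0 replicate 1 or 3 (adjusted p = 0.0636 and 0.0675) or without control replicate 1 or 3 (0.0518 and 0.0604). The median log2 fold change of the 9 was -0.47 under compression and -0.44 in controls.

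Among 14 chromatin regulators that maintain Hox expression, such as the Trithorax methyltransferase Kmt2a, 12 fell and 0 rose under compression against Day 0, and 4 fell and 0 rose in controls. Their median log2 fold change was -0.26 under compression and -0.16 in controls. Kat6b, a histone acetyltransferase, fell by 0.56 (SE 0.07, adjusted p = 3.28e-05) under compression and by 0.36 (SE 0.07, adjusted p = 0.00127) in controls. Kmt2a fell by 0.61 (SE 0.15, adjusted p = 0.00478) under compression, and its log2 fold change in controls was -0.37 (SE 0.15, adjusted p = 0.0652). The Kmt2a value in controls passed the threshold in DESeq2 (adjusted p = 0.0333) and with only the 8 libraries compared (adjusted p = 0.035). It also did so without Day 0 replicate 2 (adjusted p = 0.0375), control replicate 1 (adjusted p = 0.0482) or compression replicate 1 or 3 (adjusted p = 0.0306 and 0.0465). Whether compression and control differed was tested directly, and 0 of the 14 passed the threshold in edgeR (5 at an unadjusted p under 0.05, which 12.1% of all genes reached). Against Day 0, 22.5% of all genes fell under compression and 17.6% in controls.

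The 21 Polycomb genes encode products that repress Hox clusters. Under compression 7 fell and 5 rose against Day 0, and in controls 7 fell and 6 rose, with medians of -0.04 and -0.02. These counts are set against 22.5% of all genes lower and 26.6% higher under compression, and 17.6% lower and 22.6% higher in controls. The share that rose was near that of all genes, and the share that fell was above it in both comparisons. Whether the list differs from all genes was not tested. Phf19, an accessory subunit of the Polycomb methyltransferase, rose by 1.24 (SE 0.11, adjusted p = 2.18e-06) under compression and by 1.04 (SE 0.11, adjusted p = 1.35e-05) in controls. Cbx2, which reads the Polycomb mark, fell by 0.83 (SE 0.10, adjusted p = 1.44e-05) and 0.72 (SE 0.10, adjusted p = 6.46e-05). Ezh2, the methyltransferase itself, fell by 0.43 (SE 0.10, adjusted p = 0.00264) under compression and by 0.26 (SE 0.10, adjusted p = 0.0488) in controls. The Ezh2 call in controls was lost without Day 0 replicate 1 or 2 (adjusted p = 0.0999 and 0.0825) or control replicate 3 or 4 (0.0724 and 0.0993).

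Genes that induce Hox expression through retinoic acid, Cdx factors or Gdf11 were tested in 16 of 21 cases. Against Day 0, 5 fell and 2 rose under compression and 6 fell and 2 rose in controls. Over all genes 22.5% fell and 26.6% rose under compression, and 17.6% fell and 22.6% rose in controls. The 2 that rose were Aldh1a1 and Egr2 in both comparisons. On the log2 scale Aldh1a1 rose by 1.48 (SE 0.32, adjusted p = 0.00245) under compression and by 1.03 (SE 0.31, adjusted p = 0.0213) in controls. Egr2, with a mean of 0.488 CPM at Day 0, rose by 2.40 (SE 0.44, adjusted p = 0.000519) and 1.73 (SE 0.45, adjusted p = 0.00733). Crabp2, a carrier of retinoic acid, averaged 4.90 ± 0.53 CPM under compression, 5.01 ± 0.70 CPM in controls and 12.8 ± 1.99 CPM at Day 0. It fell by 1.38 (SE 0.14, adjusted p = 6.47e-06) and 1.34 (SE 0.14, adjusted p = 1.19e-05) on the log2 scale. Cyp26b1, which degrades retinoic acid, fell by 0.91 (SE 0.11, adjusted p = 2.01e-05) under compression and by 0.75 (SE 0.11, adjusted p = 0.000134) in controls, and Gdf11, a ligand that sets posterior Hox domains in the mouse trunk, by 0.82 (SE 0.14, adjusted p = 0.000249) and 0.66 (SE 0.14, adjusted p = 0.00164). Aldh1a2, the enzyme that makes retinoic acid in the embryo, averaged 59.1 ± 10.1 CPM in compressed lungs and 88.4 ± 24.7 CPM in control lungs, with a log2 fold change of -0.58 (SE 0.19, adjusted p = 0.356).

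Noncoding RNAs listed for the clusters were followed for 19 symbols of the table, of which 5 were tested. Mir8100, among the 19, lies outside the clusters at chr11:46102270-46102390 and had no count. Hotairm1, a noncoding RNA of the a cluster, was at 3.46, 4.06, 3.58 and 4.92 CPM under compression, 4.60, 4.08, 4.76 and 4.02 CPM in controls and 13.2, 12.1, 6.83 and 5.36 CPM at Day 0. It fell by 1.22 (SE 0.25, adjusted p = 0.00125) under compression and by 1.09 (SE 0.25, adjusted p = 0.00346) in controls. Hoxaas3, which overlaps Hoxa3 and Hoxa7 on the other strand, fell by 0.79 (SE 0.28, adjusted p = 0.0318) under compression and by 1.34 (SE 0.30, adjusted p = 0.00273) in controls, the compression call being lost without Day 0 replicate 2 or 3 (adjusted p = 0.0776 and 0.052) or compression replicate 2, 3 or 4 (0.0624, 0.0769 and 0.0779), or with compression replicates 2 and 3 summed (0.0618). Hotair, the RNA of the c cluster, had no count in any library and Hottip, at the posterior end of the a cluster, had 1. Exons on the opposite strand cover 52.9% of Hoxb3, 27.3% of Hoxb2, 25.4% of Hoxa3 and 20.4% of Hoxa7, and without a stated strand setting reads of the overlapping partners cannot be told apart.

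Genes outside the clusters gave a comparison. Of 17 tested genes that flank the 4 clusters, 2 fell and 4 rose under compression against Day 0 and 1 fell and 3 rose in controls, with medians of 0.01 and 0.04. The share of flanking genes that rose was near that of all genes, which was 26.6% under compression and 22.6% in controls, while 22.5% and 17.6% of all genes fell. Nfe2l2, beside the d cluster, rose by 0.81 (SE 0.07, adjusted p = 1.76e-06) under compression and by 0.74 (SE 0.07, adjusted p = 4.91e-06) in controls. Of 25 tested homeobox genes of lung and foregut outside the clusters, 8 fell and 6 rose under compression and 10 fell and 6 rose in controls, with medians of -0.08 and -0.10. Hopx rose by 3.09 (SE 0.22, adjusted p = 6.25e-07) under compression and by 3.00 (SE 0.22, adjusted p = 1.13e-06) in controls, and Prrx2, a mesenchymal homeobox gene, fell by 0.89 (SE 0.17, adjusted p = 0.000647) and 1.15 (SE 0.17, adjusted p = 0.000138). In the lists of cofactors, chromatin regulators, Polycomb genes, inducers, noncoding RNAs, flanking genes and other homeobox genes, 0 of 107 tested genes passed the threshold between compression and control in edgeR, and 12 (11.2%) were at an unadjusted p under 0.05, near the 12.1% of all genes.

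Markers of cell types were read in the same libraries. Summed over 14 genes, mesenchyme markers were at 7375 to 9087 CPM under compression, 6543 to 8487 CPM in controls and 7559 to 8773 CPM at Day 0, overlapping ranges. The collagens Col1a1, Col1a2 and Col3a1 carried most of that sum, with 5513 to 6912 CPM under compression, 4887 to 6421 CPM in controls and 5105 to 6154 CPM at Day 0. The other 11 mesenchyme markers, a split made after their values were seen, summed to 1861 to 2174 CPM under compression, 1656 to 2066 CPM in controls and 2454 to 2714 CPM at Day 0. Without the collagens both Day 2 sums lay below Day 0 with no overlap. The 11 did not all move alike: Tbx4 and Tbx2 were not called in either Day 2 group, and Fgf10 rose. Of all 14 mesenchyme markers, 6 fell and 3 rose under compression against Day 0, and 8 fell and 1 rose in controls. For this and the other marker lists, the shares over all genes were 22.5% lower and 26.6% higher under compression. In controls they were 17.6% lower and 22.6% higher. Tbx5, a mesenchymal transcription factor, fell by 0.54 (SE 0.07, adjusted p = 3.75e-05) under compression and by 0.43 (SE 0.07, adjusted p = 0.00031) in controls, and Fgf10, the growth factor that drives branching, rose by 0.65 (SE 0.10, adjusted p = 0.000147) and 0.56 (SE 0.10, adjusted p = 0.000658). Epithelium markers (12 genes) summed to 2626 to 3253 CPM under compression, 2450 to 2622 CPM in controls and 1420 to 1604 CPM at Day 0, and 8 of 12 rose and 1 fell in each Day 2 group. The gap between compression and control rested on Sftpc, a surfactant gene, at 677 to 1230 CPM under compression, 460 to 740 CPM in controls and 48.5 to 92.9 CPM at Day 0. Without it, a choice made after the values were seen, the sums were 1949 to 2102 CPM under compression, 1881 to 1991 CPM in controls and 1371 to 1512 CPM at Day 0, so that compression and control overlapped. Endothelium markers (9 genes) summed to 96.2 to 113 CPM under compression, 62.6 to 120.0 CPM in controls and 357 to 593 CPM at Day 0, and 9 of 9 fell in each. No gene of these 3 lists was at 0 in any library. Red cell markers (7 genes) were also lower at Day 2, at 113.5 to 209 CPM under compression, 109 to 191 CPM in controls and 1045 to 2161 CPM at Day 0, with the adult globin genes Hba-a1 and Hbb-bt at 0 in every library. In sum, mesothelium markers (6 genes) were higher at Day 2, at 201 to 217 CPM under compression, 182 to 237 CPM in controls and 91.3 to 111 CPM at Day 0. Of the 6 genes, 3 rose under compression and 4 in controls against Day 0, and 0 fell in either. Krt19 was the largest part of each Day 2 sum, at 108 to 126 CPM under compression and 95.5 to 102 CPM in controls. At Day 0 Krt19 was at 29.9 to 39.8 CPM. Wt1, Upk3b and Lrrn4 overlapped with Day 0 in both Day 2 groups. Leukocyte markers (8 genes) summed to 227 to 285 CPM under compression, 176 to 257 CPM in controls and 152 to 182 CPM at Day 0, where the control range reached that of Day 0. Neither of these 2 lists held a gene at 0. Skeletal muscle markers (9 genes) were at 17.9 to 25.1 CPM under compression, 24.1 to 36.01 CPM in controls and 3.63 to 6.74 CPM at Day 0. Myh8 was the largest part of each Day 2 sum, at 15.6 to 22.6 CPM under compression and 16.4 to 23.9 CPM in controls. At Day 0 Myh8 was at 0.941 to 4.28 CPM, and 2 of the 9 genes were tested. Control replicate 4, the library with liver markers, gave the highest sum, with Myog at 4.79 and Myh3 at 8.045 CPM. Sums of airway smooth muscle, heart muscle, nerve, and oesophagus and stomach markers overlapped with Day 0 in both Day 2 groups. The part of these shifts in the lower Hox levels was not tested.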

How the data were processed

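RNA of whole lung explants was sequenced in 12 libraries, prepared with a KAPA mRNA HyperPrep kit per the labels' protocols. The authors deposited raw read counts per gene symbol. Per the submitters' processing notes, fastp, STAR and the mm10 build were used. The sources used here state no version, counting step or strand setting. Groups and replicate numbers came from the labels.

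The test was edgeR 4.0.16 in R 4.3.3. Of all symbols 15246 passed filterByExpr, run on the group with min.count 10 and min.total.count 15. All 12 libraries entered 1 robust quasi-likelihood fit with TMM factors and the group as the only term. Benjamini-Hochberg adjustment ran over the whole tested table, with a threshold of 0.05, and adjusted p-values in the text come from this fit unless another is named. Levels in CPM (TMM-scaled) are in replicate order 1 to 4, and those per kb use the longest protein-coding transcript of GENCODE M21, which matched 39 of 39 Hox symbols. Promoters are from RefSeq. The test was checked on simulated counts.

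Counts and sums cover all 39 Hox genes, but values of 1 Hox gene and 1 cofactor are not reported here. Values in every library are given for the other genes of at least 1 CPM on average in any group, fold changes for those past the threshold against Day 0 and for the 5 with the smallest p between compression and control. Of each other list at most 4 genes with the smallest p are named by rule. Ezh2, Kmt2a, Aldh1a1 and Egr2 were chosen after their values were seen. The members and lists were chosen with earlier results of these data known. Alternatives were other size factors, no filter, DESeq2 1.42.0, only the 8 libraries compared, a replicate block, compression replicates 2 and 3 summed, each library left out and, added after the data were seen, union exon lengths. Intervals of ratios and floors (3 counts) cover counting error only. Same-numbered libraries deviated together in no regular way, with correlations from -0.181 to 0.166, so the numbers were not taken to pair them.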

Additional observations from a re-analysis of the deposited data

Results flagged for a closer look

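In groups of 4 libraries, a value was picked out where its gap to the next library passed Dixon's 95% critical value, as a share of the range of the group. Of 96 groups looked at (32 genes and sums in 3 conditions), 6 held such a value, where chance gives about 1 in 20. Summed over all 39 Hox genes, compression replicate 4 was at 575.1 CPM and the other compression libraries at 495 to 504 CPM. The b cluster alone gave the same library as high, at 371.8 CPM against 303 to 307 CPM. Hoxb6 was at 8.978 CPM in control replicate 1 and at 14.5 to 15.6 CPM in the other controls. Hoxc4 was at 5.032 CPM in Day 0 replicate 4 and at 8.67 to 9.20 CPM in the other Day 0 libraries. Hoxc5 was at 0.8446 CPM in compression replicate 3 and at 1.10 to 1.13 CPM in the other compression libraries. Mira was at 2.054 CPM in compression replicate 1 and at 4.18 to 4.55 CPM in the others of that group. Their causes were not tested.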

How the results depend on the processing

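Against Day 0 the count of Hox genes that fell ran from 14 to 18 under compression and from 15 to 17 in controls when each library was left out, with 14 reached without Day 0 replicate 3. With no filter or with DESeq2, 21 genes fell under compression (Hoxb1, Hoxb9 and Hoxd13 added) and 17 in controls (Hoxd13 added). Those 2 fits also tested Hox genes below the filter, so their counts are out of more genes than in the main fit. In the main fit 22.5% of all genes fell under compression and 17.6% in controls. The shares over all genes in the alternatives are not given here. The count of genes that rose under compression against Day 0 was 1 when only the 8 libraries compared were fitted, and 0 to 1 with each library left out. That gene was Hoxa7 each time. Between compression and control the counts were 0 under every alternative, and no gene rose in controls against Day 0. With the replicate number as a block, the counts of falls were 18 under compression and 16 in controls, with 0 rises and 0 calls between compression and control. Among the genes followed in the alternatives the block changed 2 calls. It ended the rise of Mira under compression (adjusted p = 0.0681) and added the fall of Kmt2a in controls (adjusted p = 0.0469).

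With each library left out, the log2 fold change between compression and control ran from -0.0020 to 0.11 for Hoxa5 and from -0.064 to 0.082 for Hoxb5. Between control and Day 0 it ran from -0.61 to 0.050 for Hoxa7 and from -0.34 to 0.20 for Mira. These were the values that changed sign, and none had passed the threshold. The Hoxaas2 fall under compression (log2 fold change -0.36, adjusted p = 0.0283) was lost in 6 alternatives. With union exon lengths cluster a held 46.4% of the Hox level under compression, 44.5% in controls and 47.3% at Day 0. Genes of a few counts, such as most of the posterior ones, are limited by depth. The cause of each change was not tested.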
